A study of Mus musculus with 2 samples.

Results

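The C1q/TNF-related genes encode secreted proteins, also called CTRPs, whose RNA levels were compared here between wild-type and Slc39a13-KO mouse osteoblasts. The family was chosen from earlier results of these same signals, in which some members differed widely between the genotypes, so the values below are a description and no difference was tested. The 8 gene names taken were C1qtnf1, C1qtnf2, C1qtnf3, C1qtnf4, C1qtnf5, C1qtnf6, C1qtnf7 and C1qtnf12. They are not the whole family, since C1qtnf9, another CTRP, is given below with other C1q-domain genes. Probe sets, the groups of short oligonucleotides that read 1 transcript, were taken if the platform annotation gave them 1 gene symbol and that symbol was a member. Of the 8 names, 7 had such probe sets, 13 in all, among 18193 genes read in this way on the array.

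The study asked what the zinc transporter Slc39a13 (ZIP13) does in connective tissue, and 1 array was hybridised for each genotype. Both arrays held RNA of primary osteoblasts grown from enzyme digests of newborn calvaria. In the Slc39a13-KO mice, made with R1 embryonic stem cells, a neomycin cassette replaced the exons that encode the conserved motif of this transporter family, and the deletion was present in every cell type. The strain of the arrayed mice, their sex and the number of pups in each culture were not given in the sources used here.

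A CTRP generally carries a signal peptide, a collagen-like stretch and a globular C1q domain at its C-terminal end, and this domain folds like tumour necrosis factor. The chains assemble into trimers and larger complexes that act as hormones or local signals. Adiponectin, the hormone of fat cells, has the same plan. In the skeleton the best known member is C1qtnf3 (CTRP3, cartducin), which is made in cartilage and promotes the proliferation of chondrocyte precursors.

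The promoters of C1qtnf3 and C1qtnf7 are shown first, because these genes had the widest ratios between the arrays before any floor was applied. RefSeq promoter windows (GRCm38.p6, 250 bases before to 50 after the listed start) were on hand for 5 of the 8 members, not for C1qtnf1, C1qtnf4 or C1qtnf12. Capitals mark matches on either strand to 5 short motifs, chosen after the signals were seen: the TATA box (letters TATAAA), the TEAD factor motif (letters GGAATG), the Smad motif (letters CAGAC), the core of SOX sites (letters ACAAT) and the GC box (letters GGGCGG).
C1qtnf3, chr15:10952082-10952381, plus strand: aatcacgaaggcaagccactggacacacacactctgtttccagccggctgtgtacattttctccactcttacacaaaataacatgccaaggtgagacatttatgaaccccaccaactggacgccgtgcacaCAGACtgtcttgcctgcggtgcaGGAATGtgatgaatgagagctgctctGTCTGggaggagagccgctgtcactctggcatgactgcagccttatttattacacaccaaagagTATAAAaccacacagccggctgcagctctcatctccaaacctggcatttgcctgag
C1qtnf7, chr5:43515319-43515618, plus strand: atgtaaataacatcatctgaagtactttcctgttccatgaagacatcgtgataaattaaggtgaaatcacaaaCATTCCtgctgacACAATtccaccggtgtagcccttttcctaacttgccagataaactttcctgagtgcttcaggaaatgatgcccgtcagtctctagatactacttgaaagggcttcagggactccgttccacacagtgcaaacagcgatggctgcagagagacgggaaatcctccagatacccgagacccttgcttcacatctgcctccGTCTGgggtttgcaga

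In the C1qtnf3 window the TATAAA match ended 1 base before the listed start. The GGAATG match lay 96 to 91 bases before the start, and CAGAC matches, 1 on each strand, lay 119 to 115 and 70 to 66 bases before it. In the C1qtnf7 window GGAATG was matched on the other strand, 177 to 172 bases before the start. ACAAT lay 164 to 160 bases before the start, and CAGAC was matched on the other strand 35 to 39 bases after it. No marked matches overlapped. Of all 32851 promoter windows, 13.6% held the TATA box, 14.7% the TEAD motif, 49.6% the Smad motif, 31.0% the SOX core and 35.7% the GC box on either strand. A match is a string of letters and does not show that a factor bound there.

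The values are MAS5 signals on a linear scale. Both arrays have the same trimmed mean signal, so directions are relative to the bulk of RNA. A floor of 85.1, the median of all signals, was set because lower MAS5 signals are noisy, and a probe set counted as measured when at least 1 array exceeded it. Of the 13 member probe sets 11 were measured and 2 were under the floor on both arrays, and all 7 genes kept at least 1. Where 1 side lay at the floor the ratio is a bound, written as at least N-fold. Such a gene was measured only through the array in which it was high, and this applied in whole or in part to 4 of the 7 genes. Log2 ratios are given as Slc39a13-KO over wild-type, so a negative value is lower in Slc39a13-KO.

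**Figure D1:**
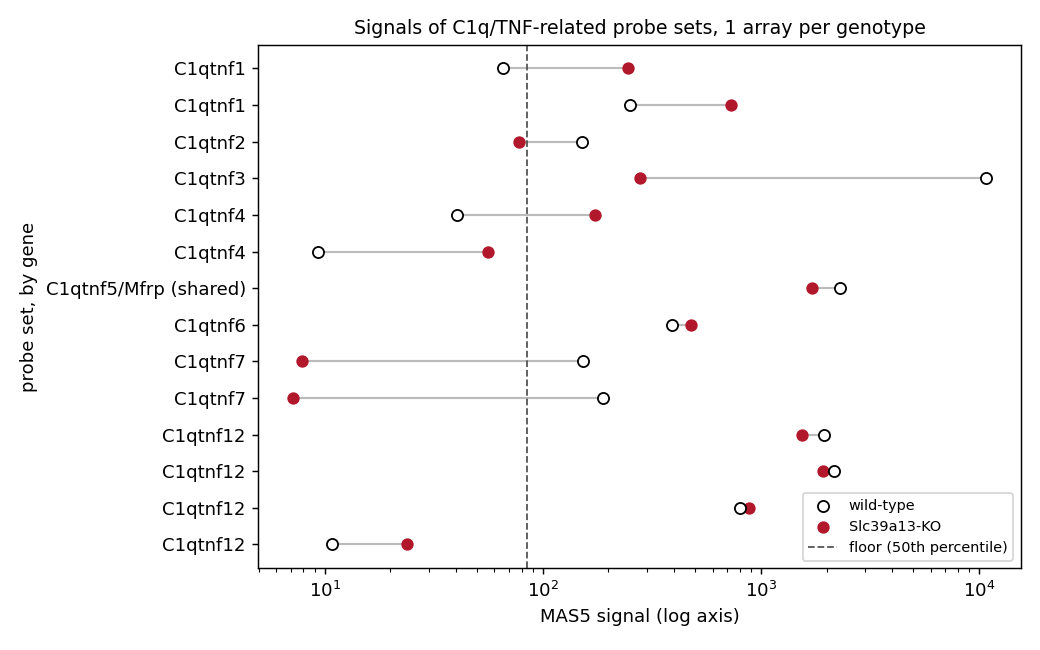
MAS5 signals (horizontal, log axis) of each member probe set (vertical, grouped by gene) in the wild-type array (open circles) and the Slc39a13-KO array (red), with the floor of 85.1 as a dashed line and the probe set that C1qtnf5 shares with Mfrp added. C1qtnf3 runs from 10732 in wild-type to 278.0 in Slc39a13-KO, both C1qtnf7 probe sets drop from above the floor to below 10, and C1qtnf12 and C1qtnf6 lie close in both arrays.

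The 7 measured C1q/TNF-related genes did not move together. C1qtnf3 was far lower in the Slc39a13-KO array, C1qtnf1 and C1qtnf4 were at least 2-fold higher, C1qtnf7 was lower by a bound close to 2-fold, and C1qtnf2, C1qtnf6 and C1qtnf12 differed by less. With a call set at 2-fold, the threshold of the study, and the same sign in every measured probe set, 2 of the 7 genes were called higher and 1 lower. Over all 12269 measured genes, 983 (8.01%) were called higher and 727 (5.93%) lower. The members were chosen with these ratios known, so nothing is read from their counts against these shares. The median log2 ratio of the 7 genes was -0.12, and that of all measured genes was 0.11. Of all called genes 57.5% were higher, a share of 38.3% with median, 46.8% with loess and 96.4% with poly-A control scaling, in which the arrays are matched on bacterial RNAs that are normally spiked in before labelling.

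The C1qtnf3 signal was 10732 in wild-type and 278.0 in Slc39a13-KO. It was the member with the largest difference above the floor on both sides, 38.6-fold lower with a log2 ratio of -5.27. Of the 8932 genes measured on both sides it had the 6th lowest log2 ratio. The value rests on 1 probe set, so it has no second reading on these arrays, and the direction and the call were the same under every scaling, floor and choice of probe sets tried. By the distance between log2 signals over the 2 arrays, the genes most like C1qtnf3 were Actg2, a smooth muscle actin (12720 and 305), Elobl (15200 and 221) and Serpinb9b, an intracellular serpin (6953 and 145.6). Their distances were 0.28, 0.60 and 1.12 log2 units.

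C1qtnf7 is expressed in fat and has been linked to glucose metabolism. Its probe sets read 152.5 and 188.9 in wild-type but 7.89 and 7.17 in Slc39a13-KO. Both readings were thus above the floor in wild-type and far below it in Slc39a13-KO. Set against the floor, the drop was at least 1.79-fold for the first and 2.22-fold for the other. Their mean bound of 1.99-fold fell just short of a call. This mean corresponds to a log2 ratio of -0.996 with an SD of 0.22 over the 2 probe sets, whereas no floor at all gave -4.50.

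C1qtnf2, another member with roles in lipid and glucose metabolism, was read by 1 probe set with signals of 150.6 and 78.0. The Slc39a13-KO signal lay just below the floor, and the gene was at least 1.77-fold lower and not called. Its log2 ratio was -0.82, and 0.087 with poly-A control scaling, which shifted the median of all genes to 0.95 and left C1qtnf2 at -0.86 against it.

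C1qtnf1, which is made by vascular and fat tissue and inhibits platelet adhesion to collagen, was higher in the Slc39a13-KO array in both of its probe sets. Signals were 65.9 and 246.8 for the first and 249.9 and 729.7 for the other, in the order wild-type and Slc39a13-KO. The gene was at least 2.91-fold higher (log2 ratio 1.54). The probe set above the floor on both sides gave 2.92-fold, and the one that lay below the floor in wild-type gave at least 2.90-fold. C1qtnf1 was called higher under every scaling, floor and choice of probe sets tried. Spin2c, Kdm6a and Sorl1 were the genes most like it, at distances of 0.017, 0.051 and 0.069 log2 units. The C1qtnf1 signals used for this were 145.8 and 424.4. The first includes a probe set raised to the floor, so these distances depend on the floor.

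C1qtnf4 departs from the family plan, with a pair of C1q domains and no collagen-like stretch, and acts in the brain on feeding. Its probe sets read 40.4 and 9.33 in wild-type but 173.7 and 56.3 in Slc39a13-KO, so the second stayed below the floor in both. Higher readings came from the Slc39a13-KO array in both cases. The measured probe set was at least 2.04-fold higher (log2 ratio 1.03). The call was lost with median, quantile and loess scaling, where the log2 ratio was 0.91, 0.92 and 0.90.

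C1qtnf4 lies on chromosome 2 close to the targeted gene itself. In the RefSeq gene order of GRCm38.p6, 7 protein-coding genes lie between it and Slc39a13. Of these, 5 were measured (Ndufs3, Kbtbd4, Ptpmt1, Celf1 and Psmc3), and their log2 ratios ran from -0.34 to 0.20 with none called. On the other side of C1qtnf4, Mtch2 had a log2 ratio of -0.66. Slc39a13 had signals of 1309 and 90.4, which goes with the labels of the arrays, and whether its probe set lies within the deleted exons was not examined.

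C1qtnf6 and C1qtnf12 were close between the arrays. C1qtnf6, an inhibitor of the alternative complement pathway, had signals of 392.7 and 475.9 in its 1 probe set, a log2 ratio of 0.28. C1qtnf12 (adipolin), an insulin-sensitising hormone of fat tissue, had 3 measured probe sets. They read 1939, 2152 and 801 in wild-type and 1537, 1917 and 886 in Slc39a13-KO, and the fourth lay below the floor in both (10.8 and 23.9). The log2 ratio of C1qtnf12 was -0.12 with an SD of 0.24 over 3 probe sets, with 2 probe sets a little lower and 1 a little higher. The C1qtnf6 ratio was above 0 in all 8 other settings that measured it, from 0.033 to 1.31. That of C1qtnf12 was above 0 with no floor (0.20), with only the probe sets that carry no shared-transcript suffix (0.15) and with poly-A control scaling (0.92, which is -0.034 against the median of all genes).

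C1qtnf5 could not be read on its own. It shares a transcription unit with Mfrp, a membrane protein of the retinal pigment epithelium, and the 1 probe set annotated to it is annotated to Mfrp as well. That probe set read 2303 and 1709 (log2 ratio -0.43), and which of the genes it reports cannot be told apart.

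The next protein-coding genes on either side of each member, 16 in all, gave a view of the surroundings. Of these 12 were measured and none was called, with log2 ratios from -0.78 (Amacr, beside C1qtnf3) to 0.92 (Cc2d2a, beside C1qtnf7). On the other side of C1qtnf3, Rai14 had a log2 ratio of -0.34.

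**Figure D2:**
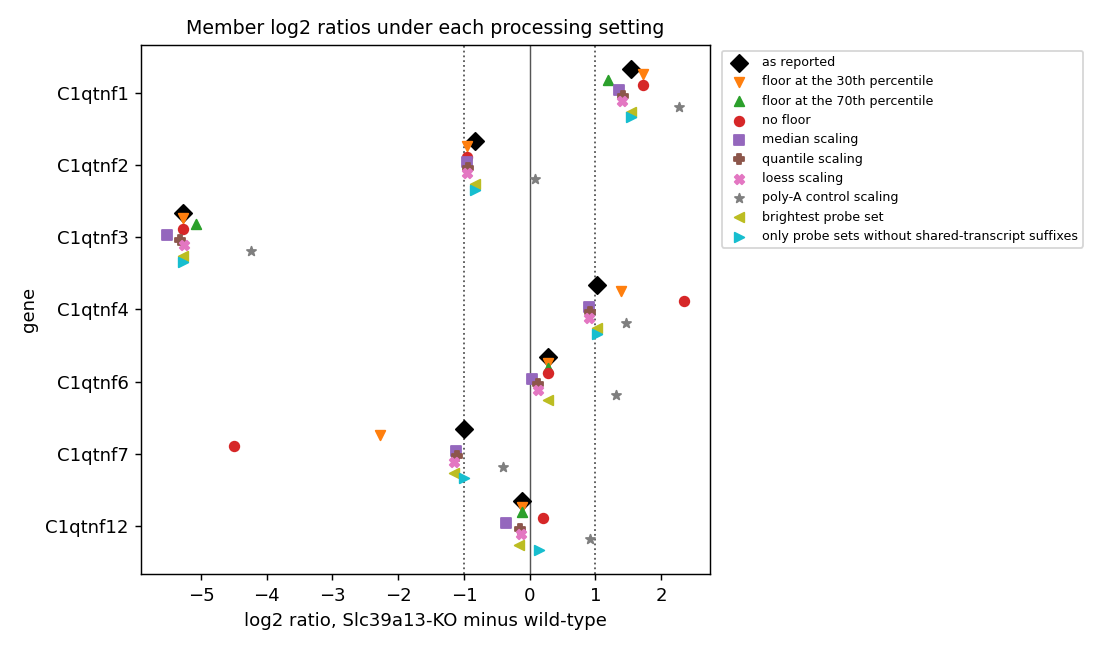
Log2 ratios (horizontal, Slc39a13-KO minus wild-type) of the 7 members (vertical) as reported (black diamonds) and under each other floor, scaling and choice of probe sets (other symbols), with dotted lines at 2-fold. C1qtnf3 stays between -5.51 and -4.23 and C1qtnf1 between 1.19 and 2.28, while C1qtnf7 ranges from -4.50 with no floor to -0.40 with poly-A control scaling.

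**Figure D3:**
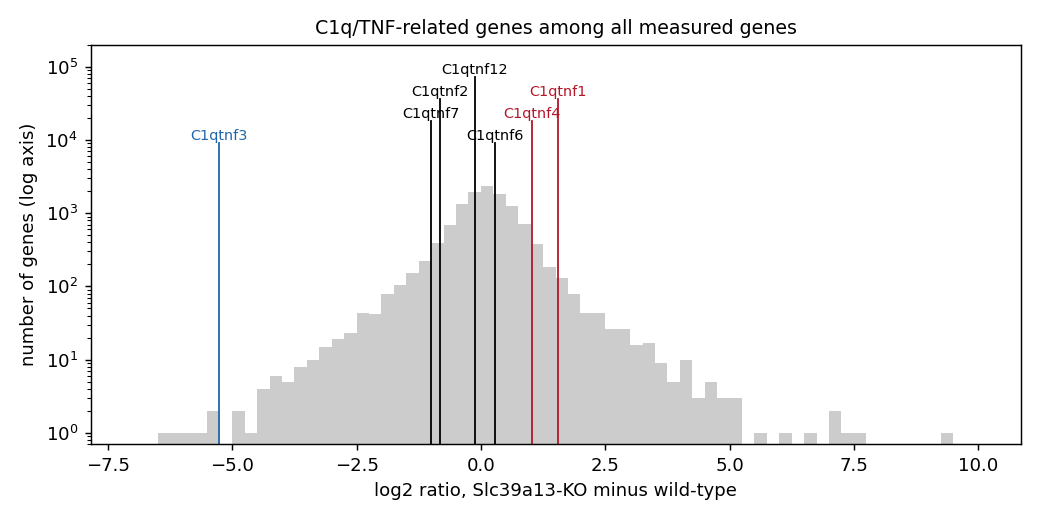
Histogram of log2 ratios (horizontal, Slc39a13-KO minus wild-type) over the 12269 measured genes (vertical, number of genes, log axis), with a labelled line for each of the 7 members, red if called higher, blue if called lower and black if not called. C1qtnf3 at -5.27 stands in the thin left tail, and the other 6 lie between -0.996 and 1.54.

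Some markers of other cell types differed between the same 2 arrays. Their counts stand beside the 8.01% of all measured genes called higher and the 5.93% called lower. All 12 chondrocyte markers examined were called higher in the Slc39a13-KO array, with 7 at the floor in wild-type, and their summed signal was 6852 in wild-type and 150156 in Slc39a13-KO. C1qtnf3, a gene known from cartilage, thus had the opposite direction to these markers. Of 8 smooth muscle and pericyte markers 7 were called lower, Actg2 among them, with 2 at the floor in Slc39a13-KO, and the sums were 53999 and 20002. Of 5 measured adipocyte markers 3 were called higher (sums 872 and 2805), with Pparg and Fabp4 at the floor in wild-type. Lpl and Cebpa had log2 ratios of -0.39 and -0.20 and were not called. Adipoq, the defining marker, lay below the floor in both arrays. Of 10 macrophage markers 7 were called higher (sums 712 and 4262), with 8 at the floor in wild-type. Among osteoblast markers 7 were measured and 3 called higher (sums 62954 and 69085). Of those called, Alpl and Dmp1 were at the floor in wild-type, and Pth1r read 295 and 1534. The 4 not called went both ways. Col1a1 and Col1a2 had log2 ratios of -0.68 (SD 1.02 over 2 probe sets) and -0.14, and Sp7 and Sparc 0.70 and 0.31. Ibsp and Phex were under the floor on both arrays, and Runx2, Bglap and Spp1 had no probe set with 1 symbol. The part of any of these cells in the member ratios was not tested. In bulk RNA, fewer cells that make a transcript and less transcript per cell cannot be told apart.

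Other proteins with a C1q domain were compared from a list of 25 gene names, of which 20 had probe sets and 13 were measured. In this list 4 genes were called higher and none lower in the Slc39a13-KO array, with a median log2 ratio of 0.42, beside the 8.01% and 5.93% of all measured genes called higher and lower. Of the 13 genes 5 were at the floor in wild-type and 1 in Slc39a13-KO, so their ratios are bounds. The sums were 17068 and 12354, lower in Slc39a13-KO. Col8a1, the brightest gene listed, had a log2 ratio of -0.71 (SD 0.65 over 3 probe sets) and was not called. Readings dropped from 19646 to 9144 and from 21270 to 10175 in its brighter probe sets, and went from 734 to 753 in the other. Col8a1 was called lower in 1 of the 9 other settings, the brightest probe set (-1.06). With poly-A control scaling its log2 ratio was 0.33, which is -0.63 against the median of all genes. Emilin1, a glycoprotein of elastic fibres, was above the floor on both sides with 690 and 1952, which is 2.83-fold higher, and the SD of its log2 ratio over 2 probe sets was 0.24. The complement chains C1qa and C1qb, made mainly by macrophages, were at the floor in wild-type and at least 2.58-fold and 3.70-fold higher. Col10a1, the collagen of hypertrophic cartilage, was likewise at the floor in wild-type, and its Slc39a13-KO signal of 213.8 was at least 2.51-fold higher. With the floor raised to the 70th percentile C1qa and Col10a1 were not measured and C1qb was not called. C1qa, C1qb and C1qc are themselves on the macrophage list. Of the 7 other macrophage markers 5 were called higher (sums 684 and 3587), and the chondrocyte markers were higher too, as given above. The part of these cells was not tested. C1qtnf9, the CTRP with the closest likeness to adiponectin, lay below the floor in both arrays with 56.5 and 13.8, as did Adipoq.

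Receptors and signalling partners of adiponectin-type hormones were compared from a list of 15 genes, of which 11 were measured. Here 1 gene was called lower, beside 5.93% of all measured genes, and none higher, and the median log2 ratio was -0.20. With median scaling 3 were called lower, beside 8.6% of all measured genes in that setting. The gene called was Prkab2, a regulatory subunit of the energy sensor AMPK, which read 805 and 298. Its log2 ratio was -1.43 (SD 0.21 over 3 probe sets). Prkab1, another AMPK subunit on the list, had the opposite direction and was not called. It read 394 and 683, a log2 ratio of 0.79 (SD 0.065 over 2 probe sets). Prkab2 was called lower in 8 of the 9 other settings. In the remaining one, poly-A control scaling, its log2 ratio was -0.40, which is -1.35 against the shifted median of all genes. The adiponectin receptors Adipor1 and Adipor2 had log2 ratios of -0.11 and -0.16. Cdh13 (T-cadherin), which binds adiponectin at the cell surface, read 403 and 203.7, and its log2 ratio of -0.98 was just short of a call. Cdh13 was called lower in 5 of the 9 other settings, among them median, quantile and loess scaling, with a lowest value of -1.25. It was 0.053 with poly-A control scaling, which is -0.90 against the median of all genes.

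**Figure D4:**
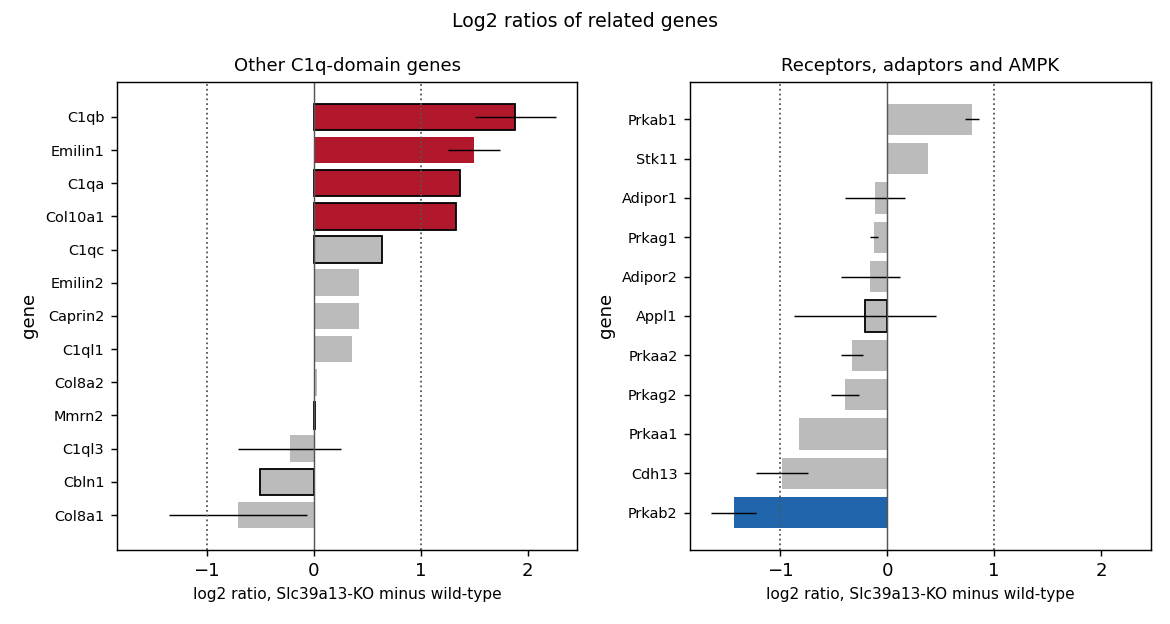
Log2 ratios (horizontal, Slc39a13-KO minus wild-type) of the measured genes (vertical) among other C1q-domain genes (left) and among adiponectin-type receptors, adaptors and AMPK subunits (right), with lines for the SD between probe sets of a gene, an outline in black for ratios with the floor on 1 side, red for called higher, blue for called lower and grey for not called. C1qb, Emilin1, C1qa and Col10a1 pass the 2-fold line (dotted) to the right, and Prkab2 passes it to the left.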

How the data were processed

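RNA of wild-type and Slc39a13-KO osteoblasts was read on 1 Affymetrix mouse whole-genome array each. The deposited signal intensities are linear values that the authors computed with MAS5, per the labels' processing notes, each array being scaled to the same trimmed mean. The methods of the study name gcRMA for its own analysis. No version was named for MAS5.

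Signals were rescaled to equal 2% trimmed means and raised to the floor, the 50th percentile of the pooled signals, before log2 was taken. A gene took the mean over its measured probe sets. A call needed a 2-fold mean and 1 sign. Of 45101 probe sets 34945 had 1 symbol. The platform annotation can be old. With 1 array per genotype no test was possible, and the number of arrays limits the precision. Between probe sets of 5700 genes the SD of log2 ratios had a median of 0.34.

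The members, gene lists and marker lists were chosen with earlier results of these data known. Genes were named by rule: all members, Slc39a13, called genes of each list, the probe set shared with Mfrp, and the 3 genes nearest to the members with the lowest and highest ratios. Neighbours, Adipor1, Adipor2, Cdh13, C1qtnf9, Col8a1, Prkab1, Lpl, Cebpa, Col1a1, Col1a2, Sp7 and Sparc were added with their values known. Python 3.11.15, numpy 2.4.6, pandas 2.3.3, scipy 1.17.1 and statsmodels 0.14.6 were used. Other floors, scalings, probe set choices and fold thresholds were tried.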

Additional observations from a re-analysis of the deposited data

How the results depend on the processing

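C1qtnf3 was called lower under all 9 scalings, floors and probe set choices tried, with log2 ratios from -5.51 to -4.23. With 1 probe set and both signals high, its value could not change with the probe set choice, the 30th-percentile floor or no floor. C1qtnf1 was called higher under all 9 (1.19 to 2.28). At a 3-fold threshold C1qtnf3 alone was called and 0 members were called higher. The number called lower rose from 1 to 2, C1qtnf7 being the gene added, with a 30th-percentile floor, no floor, median, quantile and loess scaling and the brightest probe set, and to 3 at a 1.5-fold threshold. The number called higher dropped from 2 to 1 with a 70th-percentile floor, where 4 members were measured, and with median, quantile and loess scaling. With poly-A control scaling the median over members was 0.92 against 0.95 for all genes, C1qtnf6 was called too, and C1qtnf12 was 0.92 with this shift of all genes. C1qtnf12 turned sign with no floor (0.20) and with only probe sets without shared-transcript suffixes (0.15). The median over members was 0.079 with a 70th-percentile floor and 0.20 with none. Over all genes, 983 higher and 727 lower became 1596 and 1017 with a 30th-percentile floor, 506 and 438 with a 70th-percentile floor, 3077 and 2049 with none, 654 and 1052 with median, 5988 and 222 with poly-A control scaling, 2378 and 1480 at 1.5-fold and 366 and 332 at 3-fold. Among called genes 57.5% were higher as reported, 38.3% with median, 47.5% with quantile, 46.8% with loess and 96.4% with poly-A control scaling. All genes together had a median log2 ratio of -0.11 with median, 0 with quantile, -0.0067 with loess and 0.95 with poly-A control scaling. The lists of related genes were recomputed after the data were seen. Between 1 and 9 other C1q-domain genes were called higher, with 9 of 13 under poly-A control scaling (46.5% of all genes). Between 0 and 3 were called lower, with 3 of 20 at no floor (11.3% of all genes). Of receptor and AMPK genes 0 to 2 were called higher, with 2 of 12 under poly-A control scaling. Their range called lower was 0 to 3, reached at no floor, with median scaling (8.6% of all genes) and at 1.5-fold (12.1%). No paired analysis was possible because each genotype has 1 array. Signal near the floor limits C1qtnf2, C1qtnf4 and C1qtnf7, and 1 of the 2 probe sets of C1qtnf1 lay below the floor in wild-type.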
